A study of Homo sapiens with 6 samples.

Results

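The genes described here are 6 genes of the plasminogen activation system and of the serpin family, out of 29816 genes in the deposited table. They were taken by name: PLAU, PLAUR, PLAT, SERPINE2, SERPINB2 and SERPINB5. All 6 were found by matching Ensembl identifiers to gene symbols, and no measured value entered the choice by name, although earlier results of these data were known when the names were listed. RNA came from KYSE-150, an established line of human esophageal squamous cell carcinoma, in 2 groups of 3 libraries. One group was transfected with si-NC, a negative control small interfering RNA. The other group received si-circTMEM45A, a small interfering RNA directed at a circular RNA named after its host gene TMEM45A. The sources used here do not give the dose or the time after transfection. Both groups are the same cell line and differ in the transfected RNA. Nothing in the labels ties a replicate to a culture of its own, so the p-values below cover only the variation among these 6 libraries, part or all of which may be technical.

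Plasmin is a broad serine protease that cells make from circulating plasminogen with the help of plasminogen activators. PLAU encodes urokinase (uPA), which works at the cell surface while held by its receptor uPAR, the product of PLAUR, and PLAT encodes tissue plasminogen activator (tPA). Serpins are inhibitors that trap a serine protease in a covalent complex: SERPINE2 encodes protease nexin-1, SERPINB2 encodes PAI-2, and both can block urokinase. SERPINB5 encodes maspin, a relative that is abundant in squamous epithelium and does not act as a classical protease inhibitor. In squamous carcinomas the urokinase system is best known for matrix breakdown at the invading edge.

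The libraries held 16636248 to 17323964 gene-assigned reads each, recovered from the FPKM values. FPKM is the number of fragments divided by gene length and by library size. The length that gave whole reads was that of all annotated exons joined: 2950 bases for PLAU, 3939 for SERPINB5 and 4457 for PLAUR. Levels of different genes and their order hold for that length, and no transcript lengths were used. Across 12676 tested genes, r was 0.985 to 0.988 between replicates and 0.978 to 0.982 between groups. The host gene TMEM45A averaged 3.12 ± 0.19 FPKM with si-NC and 2.12 ± 0.22 FPKM with si-circTMEM45A (SD, n = 3), and its log2 fold change was -0.40 ± 0.08 (SE; limma adjusted p = 0.0167). Without either of replicates 1 and 3 of si-NC, or of replicates 2 and 3 of si-circTMEM45A, that call ended at limma adjusted p = 0.0505 to 0.0587, and with no filter at 0.0614. The circle itself was not measured. Of 7 squamous epithelial markers 6 had a mean of at least 1 FPKM in a group, and the summed level of the 7 was 1051 to 1173 FPKM with si-NC and 843 to 951 FPKM with si-circTMEM45A. In limma 4 of the tested markers (KRT5, KRT14, TP63 and DSG3) fell, against 7.64% of all tested genes called lower. KRT6A was below the expression filter and had no test. The part of these 4 falls in the results below was not tested. Fibroblast markers summed to 1.96 to 2.38 FPKM, endothelial markers to 0.79 to 1.41 FPKM and leukocyte markers to 0.82 to 1.36 FPKM over all libraries, with PECAM1 at 0 in every si-NC library.

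Promoter sequence is shown for 4 of the 6 genes: PLAU, the highest in level and the one called, SERPINB2, the lowest in level, and PLAUR and SERPINB5, which lie between them and were not called. RefSeq windows of 250 bases before an annotated start (GRCh38.p14) were searched on both strands for TGANTCA, the AP-1 site, GGGCGG, the GC box bound by SP1, and TATAAA, the TATA box. Capitals mark the matches, and each line is written 5′ to 3′ on the strand of the gene. The PLAU stretch is chr10:73911074-73911103 (+ strand), 58 to 29 bases before the start, and lies in an exon of the antisense gene C10orf55.
PLAU: gagggagGGGCGGcgccgGGGCGGgccctg
The PLAUR stretch is chr19:43670338-43670367 (- strand), 198 to 169 bases before the RefSeq start, and lies in an annotated exon of PLAUR itself.
PLAUR: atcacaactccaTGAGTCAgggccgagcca
The SERPINB5 stretch is chr18:63476800-63476829 (+ strand), 158 to 129 bases before the RefSeq start, and lies in an annotated exon of SERPINB5 itself.
SERPINB5: gtaacttcagccTGAATCAtttctttcaat
The SERPINB2 stretch is chr18:63887587-63887696 (+ strand), 118 to 9 bases before the start, and no annotated exon covers it.
SERPINB2: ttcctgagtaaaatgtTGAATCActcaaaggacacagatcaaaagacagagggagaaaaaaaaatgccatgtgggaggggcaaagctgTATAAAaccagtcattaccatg

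TGANTCA was matched in the window of PLAUR as TGAGTCA. In the windows of SERPINB5 and SERPINB2 it was matched as TGAATCA, which is not the AP-1 site itself. No match was in either of the 2 windows of PLAU or in either of the 2 windows of SERPINE2, which are not shown. Sequence further upstream than 250 bases was not searched for any gene. PLAT was left out of this search. The TGANTCA letters occur in 6.57% of all 35116 RefSeq windows of this length. The PLAU window shown held 3 GC boxes, of which 2 are in the printed stretch, and the SERPINB5 window held 2 overlapping ones. The SERPINE2 windows held 1 and 2 GC boxes, and 42.6% of all windows hold at least 1. The TATA letters stood 30 bases before the SERPINB2 start and occur in 10.7% of windows. The SERPINB2 window was poor in G and C, at 37.2%, against 68.8% for the PLAU window shown. These matches describe the letters of the windows and nothing about the binding of a factor in these cells.

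Among the 6 genes, urokinase RNA fell with si-circTMEM45A and the RNA of its receptor and of maspin did not pass the test. Of the 4 genes that reached the expression filter (FPKM of at least 1 in at least 3 libraries), 1 was called lower, PLAU, and 0 were called higher (limma with Benjamini-Hochberg adjustment over all tested genes, threshold 0.05). Over all 12676 tested genes 18.8% were called, 7.64% lower and 11.1% higher, so 1 of 4 is near the background. With median-of-ratios scaling the whole table gave 1078 higher and 1206 lower, against 1411 and 969 as reported here, and PLAU kept its call. At an unadjusted limma p of 0.05 both PLAU and PLAT passed, against 34.0% of all tested genes. In limma voom on recovered reads 2 of the 4 were called lower and 0 higher, against 1411 lower and 1958 higher of all 12676 tested genes. SERPINE2 and SERPINB2 stayed below the filter and were not tested. In bulk RNA, fewer cells making an RNA and less of it per cell cannot be told apart.

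PLAU (ENSG00000122861, chromosome 10, 73909177 to 73917497 in GRCh38) had 37.8, 35.1 and 35.3 FPKM in the 3 si-NC libraries and 29.8, 28.5 and 30.8 FPKM in the 3 si-circTMEM45A libraries. Every si-circTMEM45A library was below every si-NC library. The mean went from 36.1 ± 1.50 to 29.7 ± 1.14 FPKM (SD, n = 3), 0.824 of the control level. The log2 fold change of FPKM + 1 was -0.27 ± 0.05 (SE; 95% interval -0.38 to -0.16; limma adjusted p = 0.00881), close to the median absolute change of 0.29 among all called genes. The 6 values gave p = 0.1 in an exact two-sided permutation test, the lowest p that this design can reach. The limma call held in all 17 alternatives run, with adjusted p between 0.000438 and 0.0319. PLAU had 1421 to 1885 reads per library, which puts counting error at 2.65% or less, under the replicate coefficients of variation of 4.15% with si-NC and 3.83% with si-circTMEM45A. C10orf55 overlaps PLAU on the opposite strand and the counting strand is not given in the sources used here. It held 71 reads over the 3 si-NC libraries and 125 over the 3 si-circTMEM45A libraries, against 5375 and 4508 for PLAU.

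The receptor gene PLAUR (ENSG00000011422, chromosome 19, 43646095 to 43670547) was not called. It had 9.32, 8.28 and 7.70 FPKM with si-NC and 8.98, 9.59 and 8.96 FPKM with si-circTMEM45A. The groups overlapped, since si-NC replicate 1 stood above 2 of the si-circTMEM45A libraries. The log2 fold change was 0.11 ± 0.07 (SE; 95% interval -0.05 to 0.27; limma adjusted p = 0.302), an interval that spans 0 and still holds rises of up to its upper bound.

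PLAT (ENSG00000104368, chromosome 8, 42175233 to 42207724) was the less abundant activator. It had 4.17, 3.77 and 5.10 FPKM with si-NC and 3.27, 3.36 and 3.58 FPKM with si-circTMEM45A. The groups did not overlap, but si-NC replicate 3 stood apart from the other two controls, and the control coefficient of variation was 15.7% against 4.77% in the other group. The log2 fold change was -0.27 ± 0.10 (SE; 95% interval -0.50 to -0.05; limma adjusted p = 0.091). The ratio of group means was 0.783, and at a pseudocount of 0.1 the log2 fold change was -0.33, against -0.28 for PLAU. In limma voom on recovered reads PLAT was called lower (log2 fold change -0.34, adjusted p = 0.0123). Without si-NC replicate 3 the log2 fold change was -0.17 (limma adjusted p = 0.187). PLAU and PLAT were 2 of the 4 tested genes whose groups did not overlap, against 39.2% of all tested genes (16.0% lower, 23.3% higher).

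**Figure D1:**
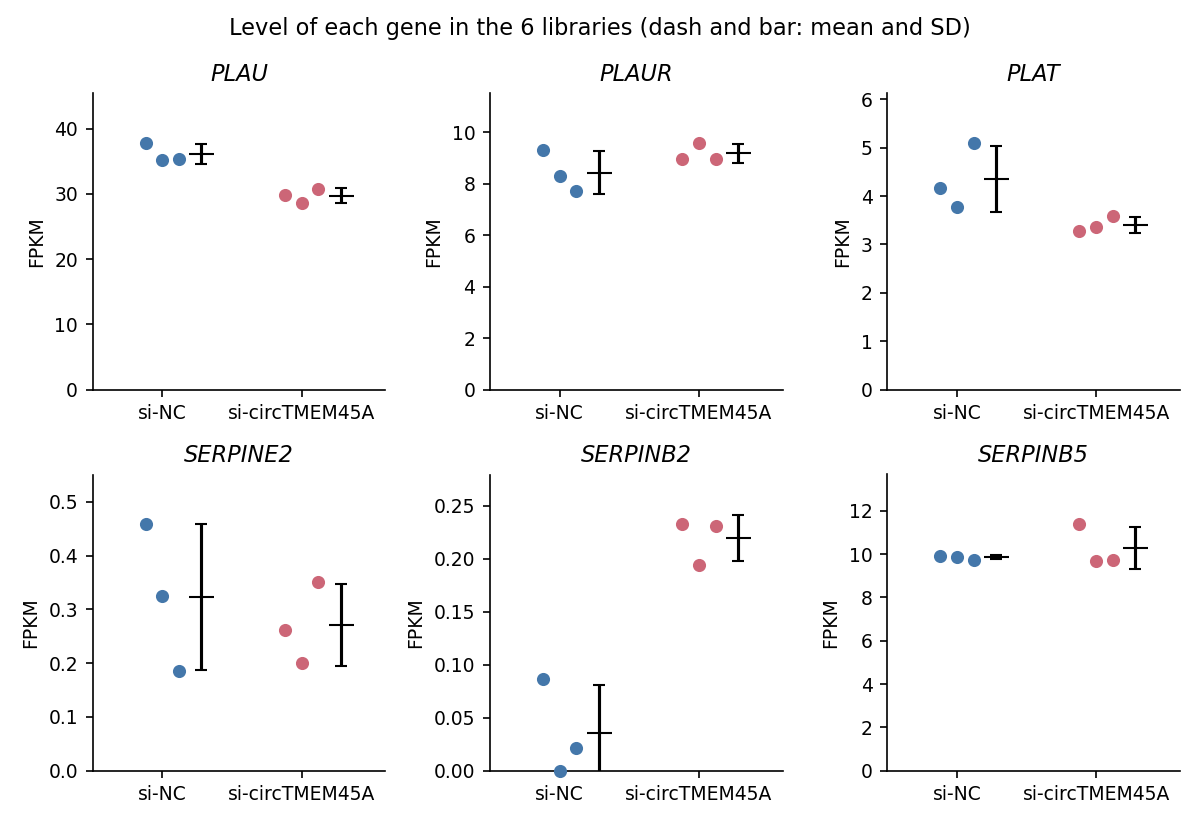
FPKM (vertical axis, from 0, a separate scale for each gene) of the 6 genes in each of the 3 si-NC and 3 si-circTMEM45A libraries (points), with the mean and SD beside them (dash and bar, cut at 0 for SERPINB2). The groups separate for PLAU, PLAT and SERPINB2 and overlap for PLAUR, SERPINE2 and SERPINB5.

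SERPINB5, the maspin gene (ENSG00000206075, chromosome 18, 63476761 to 63505085), had 9.93, 9.89 and 9.75 FPKM with si-NC and 11.4, 9.70 and 9.73 FPKM with si-circTMEM45A. Only si-circTMEM45A replicate 1 stood above the controls. The log2 fold change was 0.05 ± 0.06 (SE; 95% interval -0.10 to 0.20; limma adjusted p = 0.622), and -0.02 without that library. Per length of joined exons, maspin RNA was the second most abundant of the 6, above PLAUR in every library of the same group. In summed reads, SERPINB5 and PLAUR had 1960 and 1898 with si-NC and 2081 and 2101 with si-circTMEM45A.

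SERPINB2, the PAI-2 gene (ENSG00000197632, chromosome 18, 63871692 to 63903890), was near the limit of detection in both groups. It had 0.086, 0 and 0.021 FPKM with si-NC and 0.233, 0.194 and 0.231 FPKM with si-circTMEM45A, that is 4, 0 and 1 reads against 11, 9 and 11. Every si-circTMEM45A library was above every control. The reads summed to 5 and 31, a ratio of 6.09 after division by library size, with a 95% exact interval of 2.35 to 20.1 that covers counting error only. An exact two-sided permutation test of FPKM gave p = 0.1, the smallest possible. On the log2(FPKM + 1) scale the difference was 0.24, and it was called only when no filter was applied (limma adjusted p = 0.0485). With a pseudocount of 0.1 the same values gave 1.28. SERPINB10, which overlaps it on the same strand, had 0 and 2 reads in the 2 groups.

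SERPINE2, the protease nexin-1 gene (ENSG00000135919, chromosome 2, 223975112 to 224039319), had 0.459, 0.325 and 0.186 FPKM with si-NC and 0.262, 0.200 and 0.351 FPKM with si-circTMEM45A. The groups overlapped throughout, and the exact two-sided permutation test gave p = 0.7. It had 28 to 69 reads per library, and the control libraries had a coefficient of variation of 42.3%. The size of change that could have been detected was not estimated.

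Ordered by level per length of joined exons in the si-NC libraries, PLAU came first, then SERPINB5, PLAUR, PLAT, SERPINE2 and SERPINB2. PLAU lay at the 90.8th percentile of si-NC means among tested genes, SERPINB5 at the 61.6th, PLAUR at the 56.7th and PLAT at the 36.4th. Mean PLAU was 3.66 times SERPINB5 with si-NC, and SERPINB5 was 1.17 times PLAUR. No neighbours in this order overlapped between libraries in the si-NC group. The order was the same with si-circTMEM45A, where SERPINE2 and SERPINB2 overlapped at 0.271 ± 0.076 and 0.219 ± 0.022 FPKM (SD, n = 3).

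A ratio within a library needs no scaling between libraries, but its size depends on the exon lengths used. The FPKM ratio of PLAU to PLAUR, protease to receptor, was 4.06, 4.24 and 4.58 with si-NC and 3.32, 2.98 and 3.44 with si-circTMEM45A. Every si-circTMEM45A library was below every si-NC library. The log2 ratio differed by -0.40, and the exact two-sided permutation test gave p = 0.1, the smallest that the design allows.

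The other genes of the system came from 7 lists of 86 genes arranged by role, of which 78 were in the table and 44 reached the filter. In limma 6 rose, 7 fell and 31 did not pass, which is 29.5% called against 18.8% of all tested genes, with a median log2 fold change of 0.02 against 0.03 for all tested genes. The number that rose was 3 without si-circTMEM45A replicate 2 and 3 without si-circTMEM45A replicate 3. The receptor, clade B and substrate lists each held called genes in both directions. The lists were drawn up with earlier results of these data known.

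Among 13 tested receptors and binding proteins, 2 rose, 1 fell and 10 did not pass (median log2 fold change 0.07, 23.1% called against 18.8% of all tested genes). LRP1, the endocytic receptor that clears complexes of proteases and their inhibitors from the cell surface, fell from 11.9 ± 0.46 to 7.84 ± 0.75 FPKM (SD, n = 3; limma adjusted p = 0.00322). ITGB1, the beta-1 integrin that is a partner of uPAR in adhesion, rose from 60.5 ± 1.15 to 77.9 ± 4.74 FPKM (limma adjusted p = 0.00436). IGF2R, the mannose 6-phosphate receptor, which can bind uPAR and plasminogen, rose from 7.80 ± 0.45 to 9.61 ± 0.07 FPKM (limma adjusted p = 0.0122). KRT8, a keratin that can serve as a plasminogen binding protein, had the highest level of the list, with means of 420 and 447 FPKM, and did not pass (limma adjusted p = 0.12), but was called higher by limma voom on recovered reads (adjusted p = 0.042). The plasminogen-binding pair ANXA2 and S100A10, named here for their role and outside the naming rule, had limma adjusted p = 0.147 and 0.0579. S100A10 had means of 257 and 288 FPKM and was called higher by limma voom on recovered reads (adjusted p = 0.00667), with quantile normalization (0.0097) and at a filter of 5 FPKM (0.0341).

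Of 13 inhibitors of activators and plasmin, 12 were in the table and 3 were tested. Of these 3, 1 rose and 2 did not pass (median log2 fold change -0.06, 33.3% called against 18.8% of all tested genes). SPINT1, a Kunitz inhibitor of membrane-bound serine proteases, rose from 42.6 ± 2.64 to 48.9 ± 0.81 FPKM (SD, n = 3; limma adjusted p = 0.0332). The SPINT1 call was lost when any 1 library other than si-NC replicate 3 was dropped (limma adjusted p = 0.0569 to 0.0941), and with the replicate block at 0.0613. It was also lost with median-of-ratios scaling (0.0631), quantile normalization (0.0537), no variance trend (0.0651) and no filter (0.0919). Its relative SPINT2 had means of 61.5 and 59.1 FPKM and did not pass (limma adjusted p = 0.265). SERPINF2, the plasmin inhibitor alpha-2-antiplasmin, had means of 6.35 and 5.40 FPKM (limma adjusted p = 0.213). The gene for plasminogen itself, PLG, was looked up by symbol and had no entry in the deposited table. The 1 tested gene of the zymogen list, F12, encodes coagulation factor XII. F12 had means of 1.92 and 2.55 FPKM and did not pass (limma adjusted p = 0.116).

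**Figure D2:**
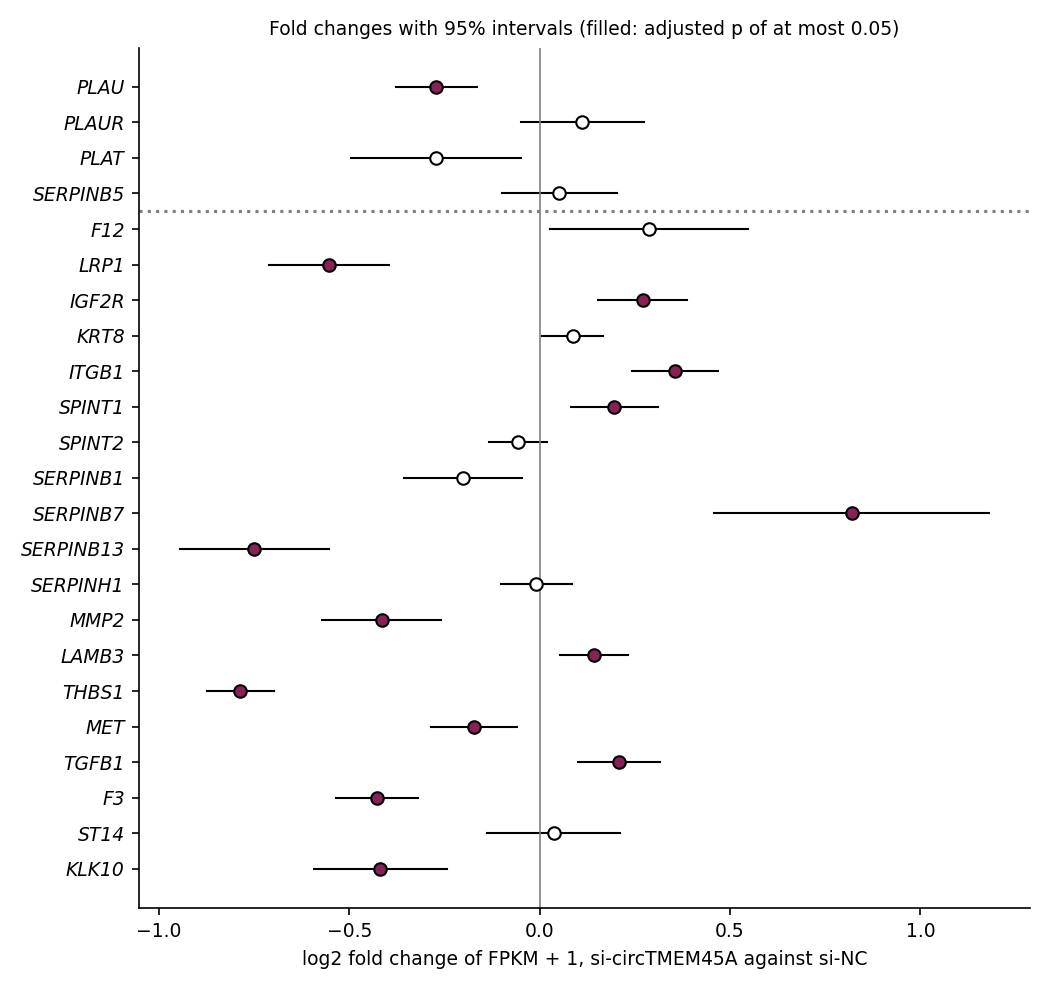
Log2 fold change of FPKM + 1 (horizontal axis, si-circTMEM45A against si-NC) with 95% limma intervals for the 4 tested genes of the 6 (above the dotted line) and for named genes of the lists, filled where the adjusted p was at most 0.05. PLAU is the filled point of the upper 4 at -0.27, and SERPINB7 at 0.82 and THBS1 at -0.79 are the outermost points below.

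The clade B serpins, the intracellular-type family to which PAI-2 and maspin belong, held called genes in both directions. Of 5 other tested clade B genes 1 rose, 1 fell and 3 did not pass (median log2 fold change 0.01, 40.0% called against 18.8% of all tested genes). SERPINB7, an epidermal serine protease inhibitor, rose from 1.56 ± 0.55 to 3.46 ± 0.39 FPKM (SD, n = 3; log2 fold change 0.82 ± 0.15, SE; limma adjusted p = 0.0131). Its limma adjusted p was 0.0599 when unfiltered genes were fitted together. SERPINB13, also called headpin or hurpin, a squamous inhibitor of lysosomal cathepsins, fell from 11.4 ± 1.16 to 6.38 ± 0.52 FPKM (log2 fold change -0.75 ± 0.08, SE; limma adjusted p = 0.00252). SERPINB1, the leukocyte elastase inhibitor and the most abundant of the 5, had means of 37.5 and 32.4 FPKM and did not pass (limma adjusted p = 0.0751). It was called lower with median-of-ratios scaling (limma adjusted p = 0.0479), at a filter of 5 FPKM (0.042), by limma voom on recovered reads (0.0119) and without si-NC replicate 1 (0.0131).

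On chromosome 18 the family forms a cluster that starts with SERPINB5. SERPINB13 begins 110 kb, SERPINB7 276 kb, SERPINB2 395 kb and SERPINB8 493 kb after the SERPINB5 start. Of the 4 tested genes of the cluster SERPINB13 fell, SERPINB7 rose, and SERPINB5 and SERPINB8 did not pass (limma adjusted p = 0.426 for SERPINB8). These calls are the same as those given above for the clade B genes, and 18.8% of all tested genes were called. SERPINB3 and SERPINB4, between SERPINB13 and SERPINB7, were below the filter in both groups, with means of 0.245 and 0.066 FPKM for SERPINB3 and 0.216 and 0.339 FPKM for SERPINB4. These neighbours are near-identical copies that can share reads, and their values are uncertain. Levels were highest at SERPINB5 and SERPINB13.

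**Figure D3:**
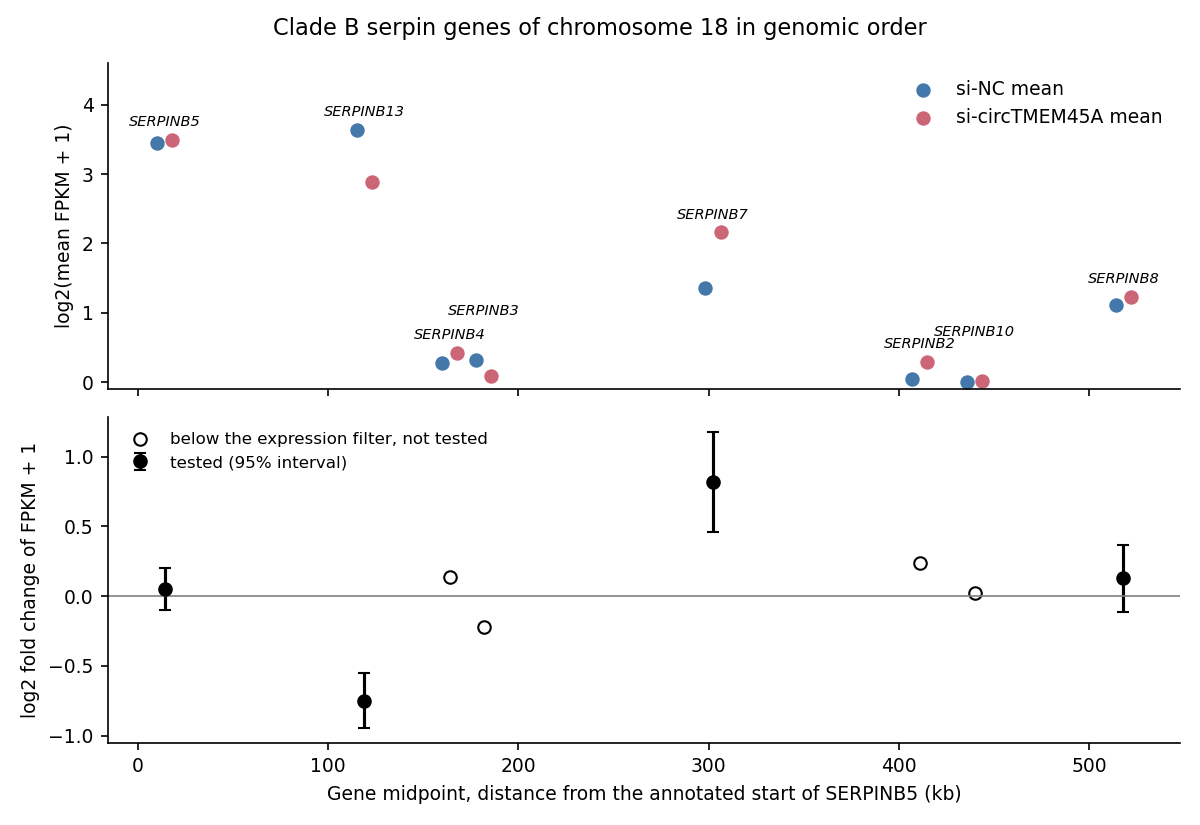
Clade B serpin genes of chromosome 18 by distance of the gene midpoint from the SERPINB5 start (horizontal axis, kb): log2 of the group mean FPKM + 1 (upper panel) and log2 fold change with 95% limma intervals for tested genes (lower panel, open points not tested). SERPINB13 at -0.75 and SERPINB7 at 0.82 lie on opposite sides of 0, and SERPINB5 at 0.05 lies near it.

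Of 2 other tested serpins 0 passed in limma (adjusted p = 0.0917 for SERPINF1 and 0.901 for SERPINH1), against 18.8% of all tested genes. At an unadjusted limma p of 0.05, 1 of the 2 passed, against 34.0% of all tested genes. Limma voom on the recovered reads also called 0 of the 2 (adjusted p = 0.194 for SERPINF1 and 0.9 for SERPINH1), against 1958 higher and 1411 lower of all 12676 tested genes. SERPINH1, the collagen chaperone HSP47, was the more abundant at 65.9 ± 2.68 and 65.4 ± 1.06 FPKM (SD, n = 3). The list headed plasmin substrates and downstream proteases also held genes of other roles, among them F3, MET, TIMP1 and TIMP2. In that mixed list 2 rose, 4 fell and 7 did not pass of 13 tested (median log2 fold change 0.02, 46.2% called against 18.8% of all tested genes). THBS1, the matrix protein thrombospondin-1, fell from 125 ± 3.92 to 72.0 ± 1.98 FPKM (limma adjusted p = 0.000313). F3, tissue factor, the cell-surface starter of coagulation, fell from 173 ± 9.68 to 129 ± 3.16 FPKM (limma adjusted p = 0.00224), and MMP2, a gelatinase, from 3.83 ± 0.21 to 2.62 ± 0.14 FPKM (limma adjusted p = 0.00745). TGFB1, whose latent protein plasmin can activate, rose from 56.8 ± 3.25 to 65.7 ± 0.77 FPKM (limma adjusted p = 0.0221). The TGFB1 call ended without si-circTMEM45A replicate 2 or 3 and likewise without replicate 3 of si-NC (limma adjusted p from 0.0584 to 0.0686), and with no filter (0.0647). The 2 remaining called genes, named after their values were seen, were LAMB3 (limma adjusted p = 0.0425, higher) and MET (0.0463, lower). The LAMB3 call ended when any 1 library other than si-circTMEM45A replicate 1 was dropped (limma adjusted p from 0.0671 to 0.122), and with TPM, no variance trend, no filter or median-of-ratios scaling (0.0647 to 0.104). The MET call ended without si-circTMEM45A replicate 2 or 3 and likewise without either of replicates 1 and 2 of si-NC (limma adjusted p from 0.12 to 0.138), and with quantile normalization, no variance trend or no filter (0.0645 to 0.115).

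Of 7 other tested pericellular serine proteases 1 fell and 6 did not pass (median log2 fold change -0.17, 14.3% called against 18.8% of all tested genes). KLK10, a kallikrein-related peptidase, fell from 4.44 ± 0.15 to 3.07 ± 0.33 FPKM (SD, n = 3; limma adjusted p = 0.0107). ST14, matriptase, which can activate urokinase on epithelial cells, had the highest level at 151 ± 10.1 and 155 ± 13.9 FPKM and did not pass (limma adjusted p = 0.773).

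**Figure D4:**
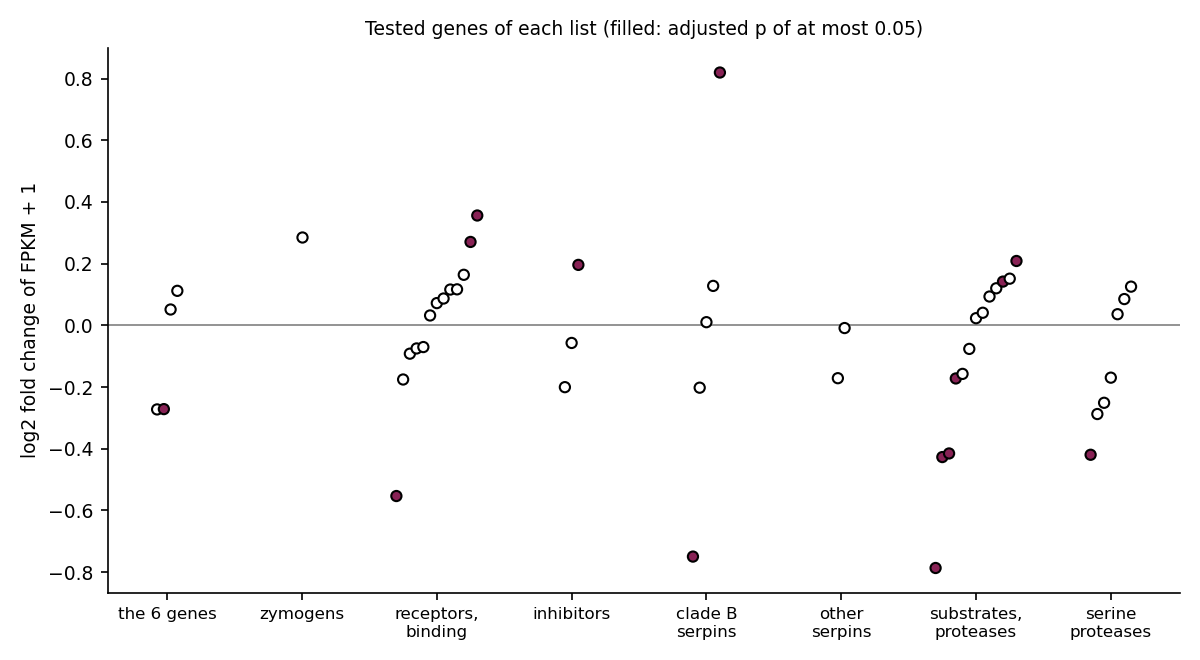
Log2 fold change of FPKM + 1 (vertical axis, si-circTMEM45A against si-NC) of each tested gene among the 6 genes and the 7 lists (horizontal axis), filled where the limma adjusted p was at most 0.05. The receptor, clade B and substrate lists hold filled points on both sides of 0. The lowest filled points are THBS1 at -0.79 and SERPINB13 at -0.75, and the highest is SERPINB7 at 0.82.

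The genes with the profile most like that of PLAU over the 6 libraries were DR1, a transcription repressor, and CROT, a peroxisomal carnitine acyltransferase. Likeness was the root mean square difference between log2(FPKM + 1) profiles, each centred on its own mean, over 7561 tested genes with a mean FPKM of at least 5. It was 0.023 for DR1 and 0.026 for CROT, against a root mean square deviation of 0.143 for PLAU around its own mean. DR1 had means of 17.2 and 14.3 FPKM and CROT of 9.70 and 7.97 FPKM. The CROT call ended with no filter (limma adjusted p = 0.0732) and when any 1 library other than the third of either group was dropped (0.0568 to 0.0767). The measure is a description over libraries that share the 2 groups.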

How the data were processed

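The authors deposited FPKM for 29816 Ensembl genes, and 29593 of them were matched to a symbol. The build was GRCh38 and the tools named were HISAT2 2.2.1, StringTie 2.1.6, HTSeq, TopHat2 and cutadapt 1.9, per the submitters' processing notes; what each tool did, and the annotation release, is not given in the sources used here. Per the labels' protocols, RNA was polyA-selected. FPKM times the GENCODE 29 union exon length gave whole reads for 100% of values (tolerance 0.001). Chi-square per gene between replicates of the same group was 2.71 to 5.07, more than counting error alone would give. It does not show whether replicates came from separate cultures. A gene was tested where 3 or more libraries reached an FPKM of 1. Tests were on log2(FPKM + 1), a scale that compresses changes of low genes, with limma 3.58.1 (mean-variance trend, two-sided, Benjamini-Hochberg) in R 4.3.3. Exact permutation tests used scipy 1.17.1. Alternatives were pseudocounts, filters, scalings, variance settings, a replicate block, limma voom and leaving out each library. The genes and lists were chosen with earlier results of these data known. Named were the 6 genes, TMEM45A, up to 4 called genes of smallest p and the most abundant tested gene of each list, and the 2 genes of profile nearest to a called one of the 6. Another gene of the rule, and values that need it, are not reported here.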

Additional observations from a re-analysis of the deposited data

How the results depend on the processing

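Of the 6 genes, PLAU kept its direction and its call in all 17 alternatives, and PLAUR was not called in any. With no filter SERPINB2 was called (difference 0.24), which made the number of the 6 called higher 1 in place of 0. Limma voom on recovered reads called PLAT (log2 fold change -0.34), which made 2 called lower in place of 1. The SERPINB2 difference was 1.28 at a pseudocount of 0.1, 0.43 at 0.5 and 0.67 with TPM, which follows from its level near 0. When 1 library was left out, 4 uncalled genes reached both signs: SERPINE2 ran from -0.131 to 0.018, SERPINB5 from -0.019 to 0.087, SERPINH1 from -0.042 to 0.0089 and ST14 from -0.011 to 0.111. With no filter 2 of the listed genes were called higher, and leaving out 1 library gave 3 to 5. Over all tested genes, no filter gave 728 higher and 526 lower in place of 1411 and 969. Leaving out 1 library gave 775 to 1088 higher and 548 to 857 lower, with fewer libraries in each fit. Limma voom gave 1958 higher and 1411 lower, and median-of-ratios scaling 1078 higher and 1206 lower. For replicates of the same number, deviations from the group means correlated at r = 0.026, 0.011 and 0.047, and for different numbers at r = -0.046 to 0.018. The titles do not say that the numbers pair libraries, so they were not taken to do so. The replicate block gave PLAU a log2 fold change of -0.27 (limma adjusted p = 0.0239), called 1000 genes higher and 720 lower, and ended the calls of SPINT1, LAMB3 and CROT (0.0613, 0.0831 and 0.056). Read depth limits SERPINB2, with 0 to 11 reads per library. Genes below the filter had no value under the settings fitted to tested genes.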
